A study of Mus musculus with 32 samples.

Results

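The 10 genes examined were 8 targets of the transcription factor p53 with roles in growth arrest, cell death or stress defence (Cdkn1a, Tnfrsf10b, Mdm2, Ccng1, Bax, Bbc3, Sesn2 and Phlda3), together with the p53 target and cofactor Trp53inp1, and the arrest gene Cdkn2a. They were chosen by name, and for each the array feature that names that 1 symbol alone was used. Of the 10 genes 9 were measured, out of 22180 named genes in all, each by 1 feature; Bax was not analysed here. The samples were whole kidneys of male mice of strain 129, either Col4a3-/- (KO) or Col4a3+/+ (WT), the WT mice being littermate controls. There were 8 KO and 8 WT mice at 7 weeks of age and 8 KO and 8 WT mice at 4 weeks, and each of the 32 mice gave 1 Affymetrix Mouse Gene 2.0 ST array. Loss of Col4a3, a chain of the type IV collagen of the glomerular basement membrane, is a mouse model of Alport syndrome, and the labels do not describe how the allele was made.

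Values are the authors' gene-level log2 signals after RMA, a normalization that puts arrays on 1 scale, so a difference of 1 is a 2-fold change. Signals of different genes come from different probes and were not set against each other. Differences are limma estimates ± SE (n = 8 per group), and a gene was called higher or lower where its p, adjusted by Benjamini-Hochberg over all 22180 genes, was below 0.05. In comparisons of genotype, rose and fell mean higher and lower in KO than in WT mice of the same age. Precision is limited by how many arrays a group holds. Col4a3 lay at 6.97, 7.15 and 7.87 (lowest, median and highest) in KO mice and 8.74, 8.93 and 9.06 in WT mice at 7 weeks, and at 7.60, 7.86 and 8.42 in KO and 8.46, 8.91 and 9.33 in WT mice at 4 weeks, so no KO mouse reached a WT mouse of its age. Arrays of 1 group correlated at 0.965 to 0.995. KO mouse 4 at 4 weeks stood apart on the leading principal component, at 9.26 against -31.2 to -10.3 for the other KO mice of that age. The 10 proximal tubule markers averaged between 11.3 and 12.5 in all 32 kidneys.

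p53 is kept low by Mdm2, a ubiquitin ligase that marks it for destruction and that p53 itself induces, which closes a feedback loop. Under DNA damage or other stress p53 accumulates and raises Cdkn1a, whose product p21 inhibits cyclin-dependent kinases, while other targets act on the mitochondrion, on death receptors or on growth signalling. In injured kidney tubules, p21 and arrest in the cell cycle are textbook features of the response of the epithelium. Several of these genes answer to other regulators too, among them the stress factors ATF4 and CHOP for Tnfrsf10b, Bbc3 and Sesn2.

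At 7 weeks 4 of the 9 genes rose in KO kidneys and none fell, against a background of 15.6% of all genes called higher and 16.7% called lower. The 4 were Cdkn1a, Tnfrsf10b, Phlda3 and Mdm2. The median difference of the 9 was 0.06, beside -0.06 over all 22180 genes, and 6 of the 9 estimates were above 0. The 4 were also called higher in each of the 8 other fits of all or part of these data and with any 1 mouse left out.

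Mdm2, the feedback ligase, lay at 8.95, 9.11 and 9.34 (lowest, median and highest) in KO mice and at 8.67, 8.81 and 8.88 in WT mice at 7 weeks. Every KO mouse was above every WT mouse, in 1 of the 3 complete separations among the 9 genes. The difference was 0.31 ± 0.07 (1.24-fold, adjusted p = 0.000424). The 95% confidence interval ran from 0.17 to 0.45. With arrays centred on their medians the difference was 0.20 (adjusted p = 0.0161).

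Among the arrest genes, Cdkn1a showed the widest separation. It lay at 9.58, 10.52 and 11.10 in KO mice and at 7.81, 8.41 and 9.33 in WT mice at 7 weeks. All 8 KO mice were above all 8 WT mice. Cdkn1a was 3.57-fold higher (1.83 ± 0.23, adjusted p = 8.51e-08), with a confidence interval of 1.37 to 2.30. Such a complete separation with KO above WT occurred in 7.62% of all genes at this age (the opposite, KO below WT, in 5.42%), and in 3 of the 9 genes here, Cdkn1a, Tnfrsf10b and Mdm2.

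Cdkn2a, the other arrest gene, encodes the kinase inhibitor p16 and, in another reading frame, ARF, which binds Mdm2; 1 feature covered the gene and the products could not be told apart. Its signal was 5.69, 5.94 and 6.18 in KO mice and 5.74, 5.98 and 6.28 in WT mice at 7 weeks. The groups overlapped over nearly their whole range, and whether the Cdkn2a signal stood above background could not be judged. The difference of -0.04 ± 0.08 did not pass (adjusted p = 0.753, interval -0.20 to 0.13). Ccng1, cyclin G1, a p53 target that acts with Mdm2, lay at 11.83, 11.94 and 12.03 in KO mice and 11.79, 11.88 and 11.96 in WT mice. Its difference of 0.06 ± 0.06 (adjusted p = 0.498) did not pass, and its sign depended on scaling, with -0.06 where arrays were centred on their medians and 0.20 (adjusted p = 0.0154, called higher) after quantile normalization.

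Among genes tied to cell death, Tnfrsf10b, the mouse receptor for the death ligand TRAIL, lay at 7.25, 7.68 and 7.97 in KO mice and 6.52, 6.61 and 7.05 in WT mice at 7 weeks. The 2 groups did not overlap. Its difference of 0.99 ± 0.11 was a 1.99-fold rise (adjusted p = 1.02e-08, interval 0.77 to 1.21). Phlda3, which competes with the kinase Akt for membrane lipids and so restrains survival signalling, lay at 7.05, 7.48 and 7.97 in KO mice and 6.73, 6.82 and 7.12 in WT mice. KO mouse 3, at 7.05, was the 1 KO mouse below the highest WT mouse. Phlda3 rose by 0.68 ± 0.10 (1.60-fold, adjusted p = 2.5e-06, interval 0.47 to 0.89).

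Bbc3, which encodes the BH3-only death protein PUMA, did not pass, and whether its signal stood above background could not be judged. It lay at 5.19, 5.36 and 5.52 in KO mice and 5.20, 5.31 and 5.44 in WT mice at 7 weeks. The difference was 0.03 ± 0.07 (adjusted p = 0.786, interval -0.11 to 0.17), and -0.09 with arrays centred on their medians. Trp53inp1, a nuclear protein that promotes p53 activity and autophagy, lay at 8.40, 8.65 and 8.83 in KO mice and 8.28, 8.65 and 9.05 in WT mice. Its difference was -0.02 ± 0.10 (adjusted p = 0.905, interval -0.23 to 0.19). Sesn2, sestrin 2, which limits mTORC1 signalling under nutrient and oxidative stress, lay at 7.52, 7.59 and 8.02 in KO mice and 7.31, 7.81 and 8.28 in WT mice. Its difference was -0.13 ± 0.18 (adjusted p = 0.609), with the interval from -0.49 to 0.23, the widest of the 5 genes that did not pass.

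**Figure D1:**
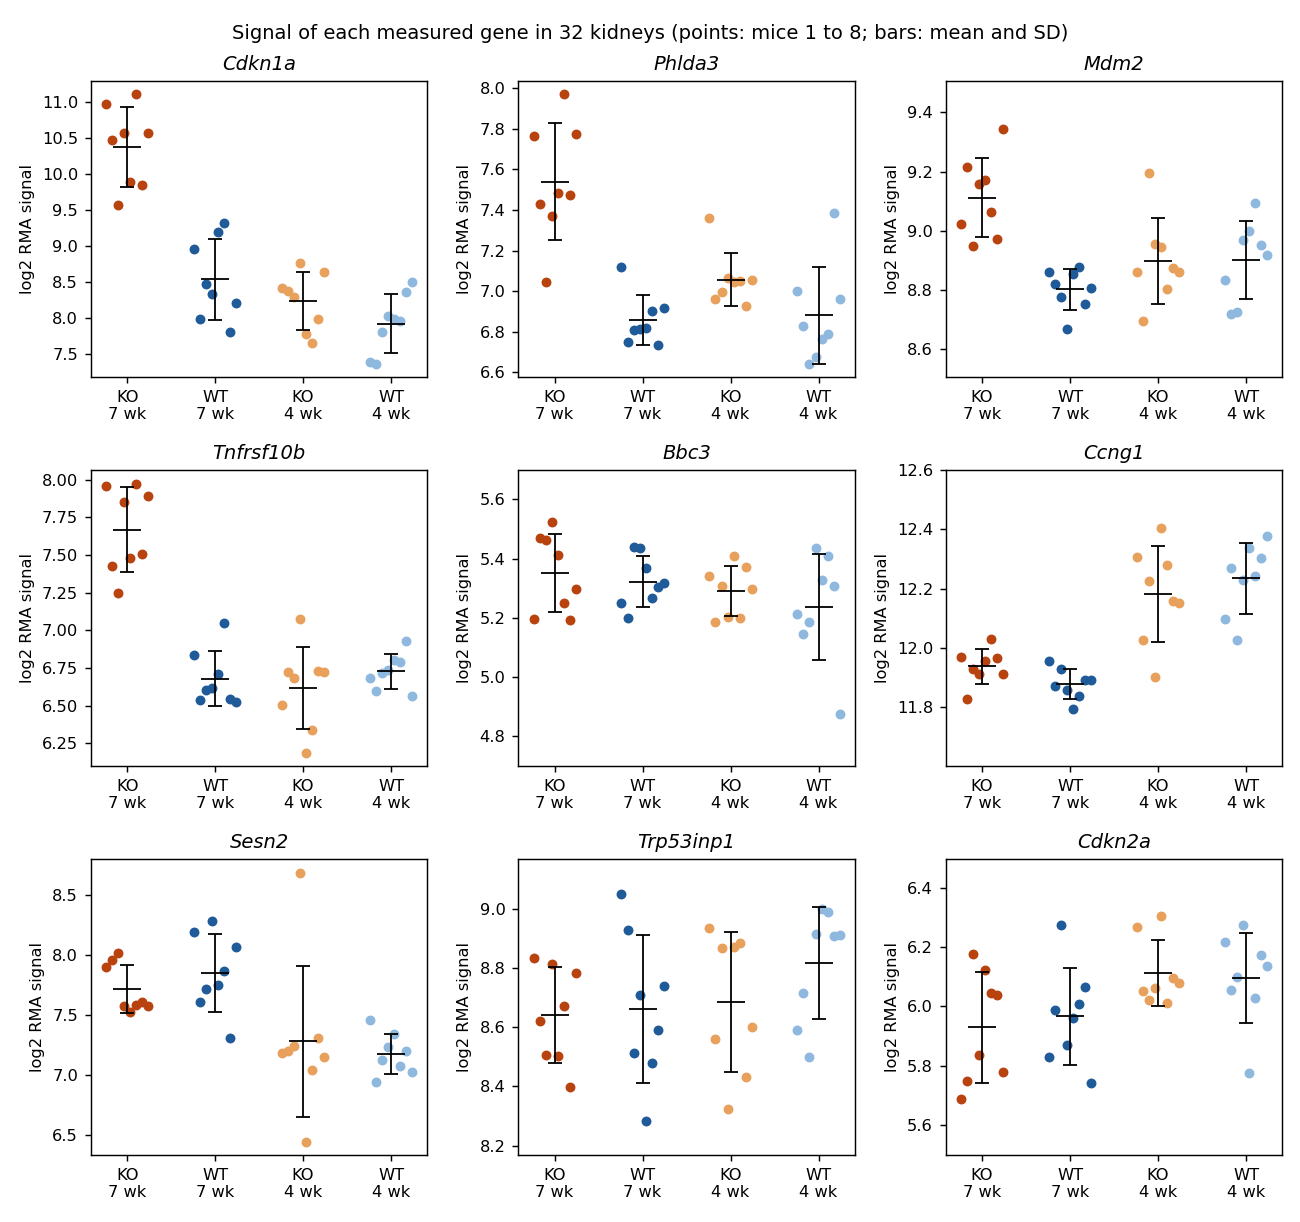
Log2 RMA signal (vertical axis) of the 9 measured genes in KO and WT kidneys at 7 and 4 weeks, 8 mice per group; points are mice in order of their number and bars are the mean with its SD. Cdkn1a, Tnfrsf10b and Mdm2 separate KO from WT completely at 7 weeks, while Ccng1 is lower and Sesn2 higher at 7 than at 4 weeks in both genotypes.

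The promoter windows of 4 genes are shown because they bear on which of the genes carry a p53 motif near an annotated start. Each runs from 250 bases before to 50 bases after a RefSeq start (GRCm38.p6), 5′ to 3′ on the strand of the gene, and capitals mark 10-base matches to the p53 half-site consensus found on either strand. Cdkn1a and Mdm2, which rose at 7 weeks, and Ccng1, which did not pass, each held a match, and Phlda3, which rose, held no complete match. The Phlda3 window ends in gaacatgt, the bases that open the Cdkn1a match GAACATGTCT, so a match crossing that edge could not be scored.
Cdkn1a, chr17:29090729-29091028, plus strand: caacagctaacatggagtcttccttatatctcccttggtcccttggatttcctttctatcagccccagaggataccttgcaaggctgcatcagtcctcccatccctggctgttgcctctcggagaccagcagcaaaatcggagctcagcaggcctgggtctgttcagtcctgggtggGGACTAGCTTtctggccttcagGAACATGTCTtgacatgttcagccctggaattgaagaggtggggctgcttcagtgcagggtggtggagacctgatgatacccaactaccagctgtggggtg
Mdm2, chr10:117710709-117711008, minus strand: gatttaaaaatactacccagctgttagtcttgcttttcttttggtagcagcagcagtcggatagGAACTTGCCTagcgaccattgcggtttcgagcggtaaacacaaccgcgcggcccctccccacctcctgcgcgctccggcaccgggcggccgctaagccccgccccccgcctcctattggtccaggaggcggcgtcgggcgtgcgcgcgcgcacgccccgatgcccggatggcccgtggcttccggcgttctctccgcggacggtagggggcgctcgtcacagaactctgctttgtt
Ccng1, chr11:40755237-40755536, minus strand: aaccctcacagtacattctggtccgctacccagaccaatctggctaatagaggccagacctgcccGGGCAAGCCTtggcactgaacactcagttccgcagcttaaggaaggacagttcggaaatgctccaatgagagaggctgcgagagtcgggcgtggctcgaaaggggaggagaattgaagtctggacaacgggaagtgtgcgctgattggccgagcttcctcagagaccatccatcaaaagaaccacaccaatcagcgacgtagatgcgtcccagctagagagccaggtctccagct
Phlda3, chr1:135765835-135766134, plus strand: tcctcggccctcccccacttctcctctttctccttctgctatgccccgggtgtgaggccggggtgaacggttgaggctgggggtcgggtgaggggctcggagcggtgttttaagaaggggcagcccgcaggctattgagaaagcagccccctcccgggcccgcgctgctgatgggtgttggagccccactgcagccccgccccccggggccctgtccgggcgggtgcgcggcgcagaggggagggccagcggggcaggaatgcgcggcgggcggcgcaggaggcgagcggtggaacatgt

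In the Cdkn1a window above, at the upstream of its 2 listed starts, the matches began at positions -73 and -51, counted from the start. The second, GAACATGTCT, was followed without a gap by the bases TGACATGTTC, which miss the consensus at their first base. The other listed Cdkn1a start lies 2790 bases downstream, and its window held no match. The single complete matches in Mdm2 and Ccng1 began at -186 and -185. In Ccng1 the match was preceded without a gap by the bases agacctgccc, which miss the consensus at a single base. Of the 9 measured genes 7 had a listed window, 11 windows in all. Tnfrsf10b, which rose at 7 weeks, and Trp53inp1 had no listed window, so neither gene was searched. A half-site was held by 3 of the 11 windows, against 8.36% of 32851 windows of the same length across the genome. The composite motif TGATGNAAT, a consensus for ATF4 with C/EBP factors, was in 0 of the 11 windows on either strand and in 0.965% of all windows. These matches describe the letters of a short window only. The 4 genes called at 7 weeks lie at chr17:29090979-29100722 (Cdkn1a), chr14:69767472-69784411 (Tnfrsf10b), chr10:117688875-117710758 (Mdm2) and chr1:135766085-135769134 (Phlda3), all annotated as protein-coding.

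At 4 weeks none of the 9 genes passed, where 0.0316% of all genes were called higher and 0.00902% lower (0.0406% in all). Complete separations were as rare at this age, 0.0271% of genes with KO above WT and 0.0225% below, and none of the 9 genes had one. Cdkn1a lay at 7.66, 8.34 and 8.77 in KO mice and 7.37, 7.98 and 8.51 in WT mice. The groups overlapped broadly, with 2 of 8 KO mice above all WT mice. Its difference was 0.31 ± 0.23 (adjusted p = 0.705, interval -0.15 to 0.78). Phlda3 lay at 6.93, 7.05 and 7.36 in KO mice and 6.64, 6.81 and 7.39 in WT mice, a difference of 0.18 ± 0.10 (adjusted p = 0.617). For Tnfrsf10b the values were 6.19, 6.70 and 7.07 in KO mice and 6.56, 6.73 and 6.93 in WT mice (-0.11 ± 0.11, adjusted p = 0.8). Mdm2 lay at 8.70, 8.87 and 9.19 in KO mice and 8.72, 8.94 and 9.09 in WT mice (-0.00 ± 0.07, adjusted p = 0.992). KO mice were spread more widely than WT mice in Tnfrsf10b, with SDs of 0.27 and 0.12, a difference in spread that was not tested. The other 5 genes differed by -0.13 to 0.11, and these differences did not pass.

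Sesn2 at 4 weeks was set by 1 animal. KO mice lay at 6.44, 7.19 and 8.69 and WT mice at 6.94, 7.16 and 7.46. KO mouse 4 held the highest value, 8.69, with the next KO mouse at 7.31. The difference of 0.11 ± 0.18 (adjusted p = 0.893) became -0.10 (adjusted p = 0.793) without that mouse. KO mouse 4 also had the highest Cdkn1a (8.77) and Tnfrsf10b (7.07) and the lowest Ccng1 (11.90) and Trp53inp1 (8.32) of the 8 KO mice of its age, and the lowest mean of the 5 thick ascending limb markers (10.4, against 11.2 in each of the other 7 to the same digits). The part of that shift in the gene values was not tested.

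The test of whether the genotype difference changed between the ages was passed by the same 4 genes, all with a larger difference at 7 weeks. In this test 9.8% of all genes were called higher and 7.24% lower. Cdkn1a changed by 1.52 ± 0.32 (adjusted p = 0.000964) and Tnfrsf10b by 1.10 ± 0.15 (adjusted p = 6.45e-06). Phlda3 changed by 0.51 ± 0.14 (adjusted p = 0.0128). Mdm2 changed by 0.31 ± 0.09 (adjusted p = 0.0193), and with arrays centred on their medians by 0.22 (adjusted p = 0.0928), which did not pass. Estimates for the other 5 genes ran from -0.24 for Sesn2 (-0.04 without KO mouse 4 at 4 weeks) to 0.11 for Ccng1 and Trp53inp1, and did not pass.

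**Figure D2:**
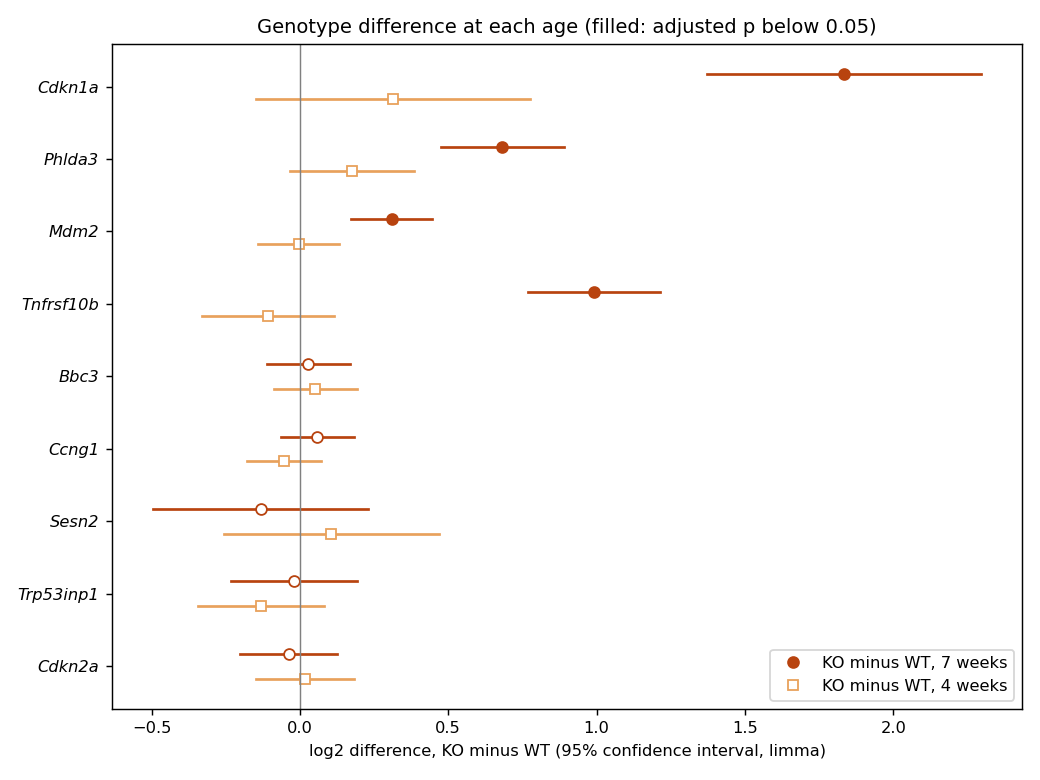
Log2 difference between KO and WT mice with its 95% confidence interval (limma, 8 mice per group) for the 9 genes, circles at 7 weeks and squares at 4 weeks, filled where adjusted p is below 0.05. The 4 filled circles are Cdkn1a at 1.83, Tnfrsf10b at 0.99, Phlda3 at 0.68 and Mdm2 at 0.31, and no square is filled.

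With age, the genes split differently. Within KO mice 5 of the 9 were higher and 1 was lower at 7 than at 4 weeks, where 21.4% of all genes were called higher and 21.3% lower (42.6% in all). Cdkn1a rose by 2.13 ± 0.23 (4.38-fold, adjusted p = 5.43e-09) and Tnfrsf10b by 1.05 ± 0.11 (adjusted p = 3.82e-09). Phlda3 rose by 0.48 ± 0.10 (adjusted p = 0.000238) and Mdm2 by 0.21 ± 0.07 (adjusted p = 0.00995). The call on Mdm2 was lost with arrays centred on their medians (0.14, adjusted p = 0.0829) and with quantile normalization (0.15, adjusted p = 0.0608). Whether the arrays of the 2 ages were processed together is not stated, so age and processing cannot be told apart.

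Within WT mice 2 genes rose and 1 fell with age, against 15.4% of all genes called higher and 14.1% lower (29.5% in all). Sesn2 rose by 0.67 ± 0.18 (1.59-fold, adjusted p = 0.00392), with 7.31, 7.81 and 8.28 in WT mice at 7 weeks and 6.94, 7.16 and 7.46 at 4 weeks, where only the lowest of the older mice lay within the range of the younger. In KO mice its rise of 0.44 ± 0.18 was near the threshold (adjusted p = 0.0472). That call was lost with quantile normalization (0.32, adjusted p = 0.161), with arrays centred (0.36, adjusted p = 0.0902), in a fit of the KO mice alone (adjusted p = 0.103) and without any 1 of 21 of the 32 mice (adjusted p up to 0.138). Those 21 were KO mice 1, 2, 3, 6, 7 and 8 at 7 weeks, WT mice 3, 5 and 6 at 7 weeks, WT mice 3, 4, 5, 6 and 7 at 4 weeks, and every KO mouse at 4 weeks but mouse 4. Without KO mouse 4 at 4 weeks the estimate was 0.64 (adjusted p = 9.47e-05).

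Ccng1 fell with age in both genotypes, by 0.24 ± 0.06 in KO mice (adjusted p = 0.00136) and 0.36 ± 0.06 in WT mice (adjusted p = 3.78e-05). WT mice lay at 11.79, 11.88 and 11.96 at 7 weeks and 12.03, 12.26 and 12.38 at 4 weeks, with no overlap. KO mice lay at 11.83, 11.94 and 12.03 at 7 weeks and 11.90, 12.19 and 12.41 at 4 weeks, with some overlap. In KO mice the call was lost with quantile normalization (-0.15, adjusted p = 0.0744). Cdkn1a rose by 0.61 ± 0.23 with age in WT mice (1.53-fold, adjusted p = 0.0389), with 7.81, 8.41 and 9.33 at 7 weeks and 7.37, 7.98 and 8.51 at 4 weeks. This smaller rise did not pass with quantile normalization (0.55, adjusted p = 0.0625), with arrays weighted by their quality (0.52, adjusted p = 0.0686) or without any 1 of WT mice 1, 5 and 6 at 7 weeks and 1, 2, 3 and 5 at 4 weeks (0.50 to 0.62, adjusted p up to 0.0996). The age changes of Phlda3 (-0.02 ± 0.10), Tnfrsf10b (-0.05 ± 0.11) and Mdm2 (-0.10 ± 0.07) in WT mice did not pass.

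Mice of 1 group also differed among themselves. In KO mice at 7 weeks, mice 1, 4, 6 and 8 had the 4 highest Cdkn1a signals (10.98, 10.56, 11.10 and 10.56), and the other 4 mice ran from 9.58 to 10.47. The same 4 mice had the 4 highest Tnfrsf10b signals (7.85 to 7.97, against 7.25 to 7.51 in the other KO mice). Phlda3 was highest in mice 6, 8 and 1, and mouse 4 (7.37) was below mice 2, 5 and 7. Mdm2 was highest in mouse 8 (9.34) and then in mouse 2 (9.22), so its order was another one. Mice 1, 4, 6 and 8 had the highest means of 12 macrophage and myeloid markers (9.05 to 9.26, against 8.05 to 8.48) and the lowest means of 10 proximal tubule markers (11.3 to 11.8, against 12.2 to 12.3). On the leading principal component mice 1, 4, 6 and 8 lay at 56.4 to 62.7, against 24.5 to 36.7 in the other KO mice. The part of these cell markers, or of that component, in the gene values was not tested.

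**Figure D3:**
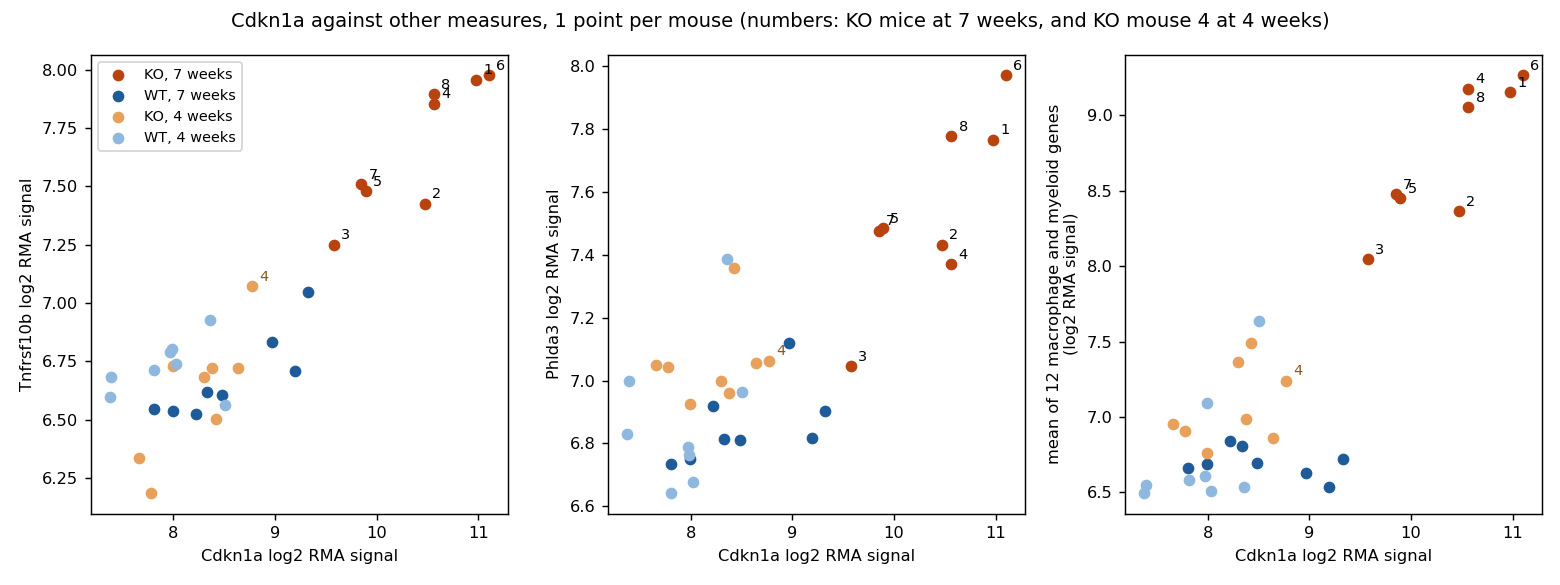
Cdkn1a log2 signal (horizontal axes) against Tnfrsf10b, Phlda3 and the mean of 12 macrophage and myeloid markers (vertical axes, log2 signal), 1 point per mouse, coloured by group, with KO mice at 7 weeks and KO mouse 4 at 4 weeks numbered. KO mice 1, 4, 6 and 8 at 7 weeks lie at the top of the Tnfrsf10b and macrophage plots, and WT mice at 7 weeks reach Cdkn1a signals of 9.33 with macrophage means of at most 6.84.

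After the 4 group means were taken out, Cdkn1a and Tnfrsf10b were the most alike of the 36 pairs of measured genes (Pearson r = 0.75 over the 32 mice, a description without a test). Next came Ccng1 with Trp53inp1 (0.65) and Cdkn1a with Phlda3 (0.52), and the lowest was Ccng1 with Sesn2 (-0.58). Without KO mouse 4 at 4 weeks, an alternative chosen after the data were seen, these 3 pairs stayed at the top (0.74, 0.59 and 0.53), while Ccng1 with Sesn2 was at -0.34 and the lowest pair was Cdkn2a with Sesn2 (-0.38). Over all 22180 genes and the 32 mice, the signals most like Tnfrsf10b were those of Map3k1, a kinase of the JNK pathway (0.96), Myof (0.96) and Adamts1 (0.96). For Cdkn1a they were the mucin Muc1, the acetylcholine receptor subunit Chrnb1 and the epithelial transcription factor Elf3, each at 0.96, and for Phlda3 Rcn3, Tax1bp3 and Lxn, each at 0.90. Within groups the most like Tnfrsf10b were Myof (0.89), Prkx (0.89) and the actin crosslinker Actn1 (0.85). Within groups the most like Cdkn1a were the actin crosslinker Flna (0.80), Tgfb1i1 (0.80) and the amino acid transporter Slc38a2 (0.79), and for Phlda3 they were Plpp5 (0.75), Cacna2d1 (0.72) and Qtrt1 (0.71). All points share the array and the normalization, and the likeness over all mice includes the step between groups.

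The wider pathway was read from lists assembled by general knowledge, with earlier results of these data known, so their counts are a description. At 7 weeks they stand beside 15.6% of all genes called higher and 16.7% called lower. Of 14 measured regulators of p53, 2 rose in KO mice at 7 weeks and 0 fell, with a median of 0.02 beside -0.06 over all genes, so the share was close to the 15.6% of the background. Trp53 itself was not analysed here. The 2 that rose were the checkpoint kinases Chek1 (0.94 ± 0.14, adjusted p = 2.34e-06) and Chek2 (0.43 ± 0.11, adjusted p = 0.00301). From 4 to 7 weeks the mean of Chek1 went from 6.66 to 6.61 in KO mice and from 6.42 to 5.67 in WT mice. That of Chek2 went from 6.66 to 6.89 in KO mice and from 6.37 to 6.46 in WT mice. The ubiquitin protease Usp7 (-0.15 ± 0.06) and the kinase Hipk2 (-0.32 ± 0.18) did not pass, and both were called lower with arrays centred, with array weights and in a fit of the 7-week groups alone. That fit called 3 regulators lower, array weights 2 and quantile normalization 1. Usp7 was also the 1 regulator called lower with variances fitted robustly to signal, and with the lowest 25% of means left out. With 1 mouse left out, 1 regulator was called lower in 7 of the 32 fits. Centring, which lowers every difference at this age by 0.114 and the median over all genes to -0.18, raised the count of lower regulators to 4 of 14 and the share of all genes called lower to 37.5%.

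Among 35 further p53 targets 14 rose, 5 fell and 16 did not pass at 7 weeks, with a median of 0.15. The antiproliferative gene Btg2 lay at 8.07, 8.69 and 9.14 in KO mice and 7.27, 7.39 and 7.66 in WT mice and rose by 1.22 ± 0.12 (2.33-fold, adjusted p = 4.38e-10). Apaf1, the scaffold of the apoptosome, rose by 0.79 ± 0.08 (adjusted p = 4.02e-09), with 6.83 to 7.50 in KO mice and 6.26 to 6.47 in WT mice. Cd80, a costimulatory ligand of antigen-presenting cells, rose by 1.41 ± 0.16 (adjusted p = 1.71e-08). Dcxr, a xylulose reductase of the proximal tubule, fell by 0.85 ± 0.11 (adjusted p = 2.14e-07). The death receptor Fas (0.23 ± 0.09) and the ferrireductase Steap3 (0.23 ± 0.10) did not pass. With arrays centred, 9 of the 35 were lower in place of 5, a smaller share than the 37.5% of all genes called lower at that setting.

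The other CDK inhibitors mostly did not pass at 7 weeks, where 15.6% of all genes were called higher and 16.7% lower. Of 5, the p15 gene Cdkn2b rose, by 0.45 ± 0.10 (1.37-fold, adjusted p = 0.000374), with 6.83, 7.01 and 7.39 in KO mice and 6.39, 6.59 and 7.01 in WT mice. The p27 gene Cdkn1b (-0.10 ± 0.06) and the p19 gene Cdkn2d (-0.07 ± 0.07) did not pass as deposited and were both called lower with arrays centred, as were 37.5% of all genes. Cdkn2b and Cdkn2a are neighbours on chromosome 4, and the difference between their changes was not tested.

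Genes of cell division, like Cdkn1a, were higher in KO than in WT mice at 7 weeks. Among 20 cyclins, kinases and RB-E2F genes 13 rose and 3 fell, with a median of 0.41. The mitotic kinase Cdk1 lay at 7.13, 8.11 and 8.31 in KO mice and 5.39, 5.89 and 6.72 in WT mice, a rise of 2.05 ± 0.23 (4.13-fold, adjusted p = 1.46e-08). Ccna2 (1.88 ± 0.23), Ccnb2 (1.82 ± 0.24) and E2f8, a repressor of E2F targets (1.40 ± 0.14), rose as well, while Wee1 (0.25 ± 0.14) and Cdc25a (0.18 ± 0.08) did not pass. All 20 proliferation genes rose, with a median of 1.00, under every setting and with any 1 mouse left out. Mki67, the proliferation antigen, lay at 8.57, 9.12 and 9.55 in KO mice and 6.52, 6.95 and 7.97 in WT mice (2.00 ± 0.24, adjusted p = 3.96e-08). Mcm6 (1.62 ± 0.16), Mcm5 (1.35 ± 0.14) and the topoisomerase Top2a (1.79 ± 0.20) rose with it. At 4 weeks none of the 20 passed, with 18 estimates above 0 and a median of 0.33 beside -0.01 over all genes. Within WT mice 11 of the 20 fell with age and none rose, where 14.1% of all genes fell. Within KO mice 9 rose, 1 fell and 10 did not pass, where 21.4% of all genes rose and 21.3% fell. From 4 to 7 weeks the mean of Cdk1 went from 8.24 to 7.99 in KO mice and from 7.60 to 5.95 in WT mice. That of E2f8 went from 5.61 to 6.23 in KO mice and from 5.35 to 4.83 in WT mice.

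Death genes outside the set were called in both directions. Of 22 BCL2 family, caspase and death receptor genes 6 rose and 2 fell, with a median of 0.05. Over all genes 15.6% were called higher and 16.7% lower (32.3% in all). Bak1, a pore former that acts in parallel to Bax, rose by 1.00 ± 0.13 (2.00-fold, adjusted p = 2.89e-07), with 8.03 to 8.93 in KO mice and 7.45 to 7.76 in WT mice. The TNF receptor Tnfrsf1a rose by 0.80 ± 0.10 (adjusted p = 1.79e-07), the survival protein gene Mcl1 by 0.50 ± 0.08 (adjusted p = 3.08e-06) and Casp8, the caspase of death receptors, by 0.37 ± 0.08 (adjusted p = 0.000279). For Mcl1 the difference was 0.33 (adjusted p = 0.000137) with the mean of all its features. Casp9 (-0.20 ± 0.08) and the adaptor Fadd (-0.17 ± 0.08) did not pass, and both were called lower with arrays centred, quantile normalization and array weights. Centring brought the count of lower genes to 6 of 22, again a smaller share than the 37.5% over all genes.

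Of 17 genes linked to senescence and its secretions 14 rose and 1 fell at 7 weeks, with a median of 0.66. The protease inhibitor Timp1 rose by 4.05 ± 0.25 (16.5-fold, adjusted p = 9.76e-14), the macrophage elastase Mmp12 by 2.42 ± 0.18, the chemokine Ccl2 by 4.47 ± 0.41 and the matrix signal Ccn1 by 1.59 ± 0.17. Many of these are also made by macrophages and fibroblasts. The nuclear proteins Hmgb2 (0.29 ± 0.12) and Hmgb1 (-0.00 ± 0.09, and 0.05 with quantile normalization, where its sign turned) did not pass. Cdkn2a, often read as a senescence marker, did not pass, as given above.

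Among 13 genes of the integrated stress response, which shares targets with p53, 6 rose and 1 fell, with a median of 0.21. Atf3 rose by 2.12 ± 0.14 (4.34-fold, adjusted p = 2.02e-13), with 7.92 to 8.84 in KO mice and 6.21 to 6.69 in WT mice. Nupr1, a stress-induced chromatin protein, rose by 1.60 ± 0.14 (adjusted p = 3.97e-11) and was the 1 gene of these lists called at 4 weeks (0.69 ± 0.14, adjusted p = 0.0357). In a fit of the 4-week groups alone 0 genes were called higher at that age, so the early call on Nupr1 was lost there. The cystine transporter Slc7a11 (1.05 ± 0.15) and the asparagine synthetase Asns (0.82 ± 0.10) rose too. For Slc7a11 the difference was 0.57 (adjusted p = 3.96e-06) with the mean of all its features, and it was among the genes dropped where the lowest 25% of means were left out. Chac1 (0.21 ± 0.09) and Cebpb (0.18 ± 0.09) did not pass.

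**Figure D4:**
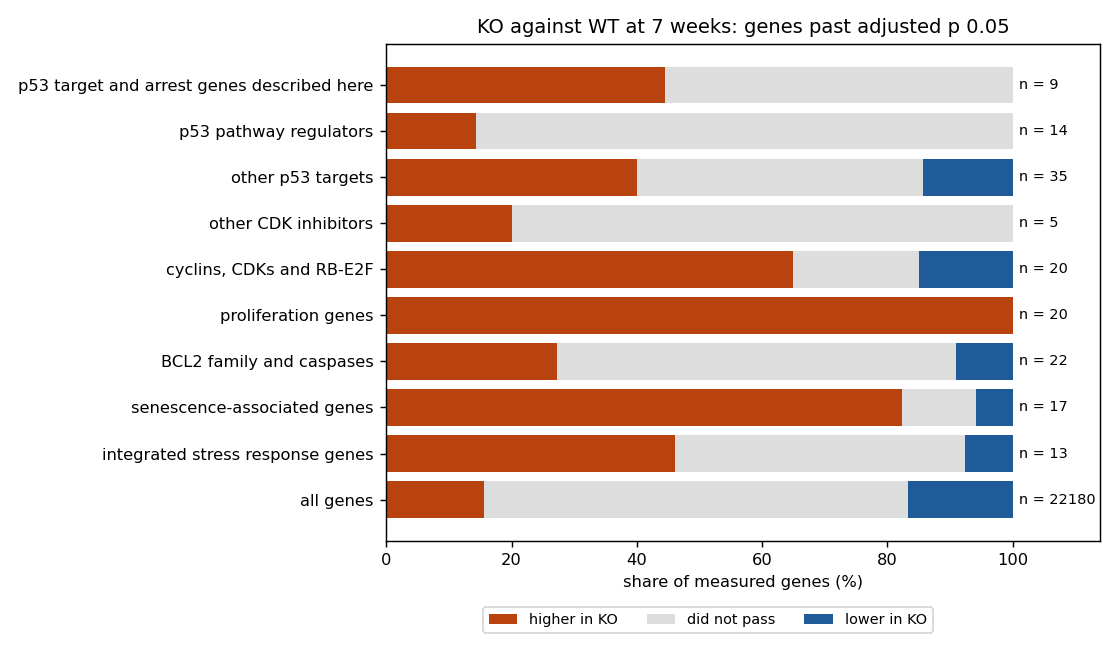
Share of measured genes (horizontal axis, percent) called higher, not passing, or called lower in KO against WT mice at 7 weeks, for the 9 genes, for 8 related lists and for all 22180 genes; n is the number measured. All 20 proliferation genes and 14 of 17 senescence-associated genes are higher, and 2 of 14 p53 regulators are, near the share over all genes.

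Cell markers moved with genotype at the same age. In KO mice at 7 weeks 12 of 12 macrophage and myeloid, 8 of 8 fibroblast and mesangium and 7 of 8 T cell markers rose, and 10 of 10 proximal tubule and 6 of 10 distal tubule and collecting duct markers fell. Macrophage means ranged from 8.05 to 9.26 in KO and 6.54 to 6.84 in WT mice, fibroblast means from 9.03 to 9.81 in KO and 7.77 to 8.21 in WT mice, and proximal tubule means from 11.3 to 12.3 in KO and 12.4 to 12.5 in WT mice. Of the remaining markers, 2 of 5 B cell, 2 of 7 neutrophil and 1 of 5 thick ascending limb genes rose, 3 of 8 endothelial and 1 of 5 thick ascending limb genes fell, and 0 of 4 podocyte genes passed. These counts stand beside 15.6% of all genes called higher and 16.7% called lower. In whole kidney fewer cells of a type and less RNA per cell cannot be told apart, and the part of cell makeup in the rise of Cdkn1a, Tnfrsf10b, Phlda3 and Mdm2 was not tested.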

How the data were processed

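Each of 32 mice gave 1 array of whole-kidney RNA. Per the labels, the authors deposited gene-level log2 signals made by RMA in Affymetrix Expression Console, with no version given, and the submitters' processing notes name the same tools. Scan dates and raw scanner data were left unused. All 32 columns were matched to a sample by name. Of 41345 features, 23521 named 1 gene symbol; the highest mean feature per symbol was kept, which gave 22180 genes, with no filter on low values. A limma 3.58.1 model (R 4.3.3) held a mean per group of 8 mice and 28 residual degrees of freedom, and 5 comparisons were adjusted by Benjamini-Hochberg over all genes. It was tested on simulated data. Each of the 9 genes was also compared by a two-sided exact permutation test over 12870 splits, in which the 4 genes called at 7 weeks had p = 0.000155 (Cdkn1a, Tnfrsf10b, Mdm2; the smallest it can give) and 0.000311 (Phlda3). Named list genes are up to 4 with the smallest p among those called at 7 weeks, and up to 2 with the largest difference among the others; like genes are the 3 with the highest r for the 3 genes with the smallest p. The genes and lists were chosen with earlier results of these data known. Symbols of 21994 genes matched RefSeq by Entrez number. Of 158 list genes 146, and of 82 cell markers 77, were measured. Labels number mice 1 to 8 in every group without saying that numbers pair mice. Nothing says which littermates shared a litter. Python 3.11.15 with scipy 1.17.1, pandas 2.3.3, numpy 2.4.6 and matplotlib 3.10.9 made tables and plots.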

Additional observations from a re-analysis of the deposited data

Results flagged for a closer look

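In 2 of the 36 groups of 8 mice checked for a mouse far from its group, 1 animal stood apart, where chance gives about 1 in 20. For Sesn2 in KO mice at 4 weeks, the gap between mouse 4 (8.69) and the next mouse (7.31) took 0.612 of the range of the group. For Phlda3 in KO mice at 4 weeks, the gap between mouse 1 (7.36) and the next mouse (7.06) took 0.683 of the range. Without mouse 1 the KO minus WT difference of Phlda3 at 4 weeks was 0.13, against 0.18 with it, and neither passed. With any 1 KO or WT mouse left out in turn, that difference ran from 0.13 to 0.25 and never passed. The genotype difference differed between the ages, by the test of that difference, for Cdkn1a (1.52), Tnfrsf10b (1.10), Phlda3 (0.51) and Mdm2 (0.31), on the log2 scale as the 7-week minus the 4-week difference.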

How the results depend on the processing

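The calls for KO against WT, 4 genes higher at 7 weeks and 0 at 4 weeks, held under all settings and with any 1 mouse left out, except that quantile normalization added Ccng1 at 7 weeks. In the change between ages quantile normalization added Ccng1, and Mdm2 was lost with arrays centred (0.22, adjusted p = 0.0928). Counts with age moved. Higher genes in KO mice went to 3, against 5, with arrays centred and with quantile normalization, lower genes to 2, against 1, with arrays centred, and higher genes in WT mice to 1, against 2, with quantile normalization and with array weights. With 1 mouse left out these counts ran from 4 to 5, from 1 to 2 (2 without KO mouse 3 or 5 at 7 weeks, which added Cdkn2a) and from 1 to 2. Cdkn2a in KO mice was lower with age after centring (-0.26) and quantile normalization (-0.21). Values near 0 changed sign: with arrays centred, Ccng1 (-0.056) and Bbc3 (-0.086) at 7 weeks and the age change of Bbc3 in KO mice (-0.015); at 4 weeks Cdkn2a with quantile normalization (-0.0037) and array weights (-0.031). With 1 mouse left out, sign changed within -0.074 to 0.0059 for Cdkn2a and -0.074 to 0.036 for Trp53inp1 at 7 weeks, -0.028 to 0.043 for Cdkn2a, -0.046 to 0.025 for Mdm2 and -0.10 to 0.23 for Sesn2 at 4 weeks, -0.052 to 0.028 for the change between ages of Bbc3, and -0.061 to 0.049 for the age change of Phlda3 in WT mice. Of the named genes that did not pass at 7 weeks, Fas, Steap3, Cdc25a, Chac1 and Hmgb2 were called higher with array weights, Steap3, Chac1 and Hmgb2 also in a fit of the 7-week groups alone, and Fas and Chac1 also with the lowest 25% of means left out. The causes were not tested. Same-numbered mice correlated above 0.1 in 1 to 3 of 8 pairs per comparison (-0.26 to 0.21 in all), so the numbers were not taken as pairs; with the replicate block Cdkn1a at 7 weeks had 1.83 (adjusted p = 5.24e-07), 4 genes were higher and no call on the 9 genes changed. At 7 weeks all genes split into 3469 higher and 3698 lower, and into 2568 and 8324 with arrays centred, while all genes called in the change between ages split into 2174 higher and 1605 lower, and 1673 and 3360 centred. Age changes in KO mice split into 4738 higher and 4715 lower, and 3906 and 7230 centred. Signal over background could not be judged from these values.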
